A study of Mus musculus with 6 samples.

Results

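The genes described here are 10 regulators of the G1 phase of the cell cycle, of 55453 gene symbols in the table: the D cyclins Ccnd1, Ccnd2 and Ccnd3, the E cyclins Ccne1 and Ccne2, their kinases Cdk2, Cdk4 and Cdk6, and the pocket proteins Rb1 and Rbl1. They were chosen by symbol, and all 10 were found and passed the filter on low counts. The data are 6 RNA sequencing libraries made after poly(A) enrichment, with SB28, a murine glioma cell line, as the labelled source and C57BL/6 as the strain. The genotype label of 3 libraries is PP2A KO, with PP2AcKO in the title (called knockout here), and that of the other 3 is Wild Type, with PP2AcWT in the title. PP2Ac is the catalytic subunit of protein phosphatase 2A. No treatment or time is labelled for single libraries. The design text of the series speaks instead of SB28 implanted subcutaneously or into the brain of WT and LysMcrePP2Acfl/fl mice, where Cre is driven in myeloid cells, with harvest after 18 days. The labels do not say which of these accounts fits the libraries, how the knockout was made, whether it is 1 clone, or whether the replicates came from independent cultures. Should they share a culture, the p-values cover only library-to-library spread, which may be technical.

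In a dividing cell, growth factor signals raise the D cyclins, which bind and activate Cdk4 and Cdk6. These kinases, and then Cdk2 with an E cyclin, phosphorylate the pocket proteins, which otherwise hold E2F transcription factors in check. The released E2F factors switch on genes of DNA synthesis, and also Ccne1, Ccne2 and Rbl1 themselves. CDK inhibitors of the CIP and INK4 families oppose the kinases, and PP2A is one of the phosphatases that take phosphate off pocket proteins.

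Total counts ran from 38735864 to 49344079 per library. Ppp2ca, the gene of the main PP2A catalytic subunit, had levels of 274, 244 and 247 counts per 1000000 (CPM) in replicates 1, 2 and 3 of wild type. In knockout they were 217, 187 and 193 CPM. The knockout libraries were thus lower in every case (adjusted p = 0.00377, log2 fold change -0.36 with an SE of 0.08), though the message was still abundant in them. Of all tested genes 64% passed an adjusted p of 0.05, and their 25th to 75th percentile ran from -0.48 to 0.47 over all tested. Exons of 9430098F02Rik, Gm24157 and Mir3061 cover 41.3% of the exon bases of Ppp2ca, and their part in its count was not tested. Replicate 1 of each group differed from replicates 2 and 3 more than these did from each other, so each result that turns on them is given without them too. Of 10 leukocyte and macrophage markers, 9 were under 1 CPM in every library. Adgre1, Cd3e and Cd8a were among those at a count of 0. The summed level of all 10 was 3.23 to 3.6 CPM for wild type libraries and 4.42 to 4.98 CPM for knockout libraries. Cd68 made up most of it and rose from a mean of 3.01 to 4.43 CPM. Summed counts of Ptprc (31 to 11), Csf1r (23 to 10) and Cx3cr1 (7 to 4) were lower in knockout. Itgam and Cd4 had counts only in knockout, 2 each. Among the 7 glioma and neural progenitor markers, Olig2 had a count of 0 in all 6 libraries, and the summed level was 6002 to 6159 CPM for wild type libraries and 2974 to 2986 CPM for knockout libraries. Most of that sum was Vim, which fell from a mean of 4791 to 1882 CPM. Nes, Sox2 and Cspg4 (8.66 to 0.127 CPM) also fell, whereas Pdgfra rose (39.8 to 49.0 CPM) and Cd44 did not pass (771 and 805 CPM). Of the 5 endothelial markers, Cdh5 was at 395 to 448 CPM, Kdr rose (1.65 to 7.78 CPM), Tek fell (1.40 to 0.295 CPM), Pecam1 stayed under 1 CPM and Cldn5 had a count of 0. The summed astrocyte markers were at 10.8 to 11.9 CPM in wild type and 2.98 to 4.27 CPM in knockout, most of it Aldh1l1. The part of these marker levels in the results below was not tested.

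All 5 G1 cyclins were lower in the knockout, whereas Cdk6, Cdk2 and Rb1 were higher. Cdk4 and Rbl1 did not pass the test. With edgeR's quasi-likelihood test and Benjamini-Hochberg adjustment over 14877 genes, 8 of the 10 passed an adjusted p of 0.05, where 64% of all tested genes did. The members' share is therefore not far from the background of a comparison in which most genes differed. In direction, 5 members were lower, against 32.1% of all tested genes, and 3 were higher, against 31.9%. The median log2 fold change was -0.27 over the members and -0.01 over all tested genes, and the median absolute value was 0.47 for both. The wild-type and knockout libraries did not overlap for 6 members, against 68.3% of all tested genes. In a stricter test against a fold change of 1.5, 3 members passed (Ccnd1, Ccne1 and Cdk6), where 26.7% of all tested genes did.

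**Figure D1:**
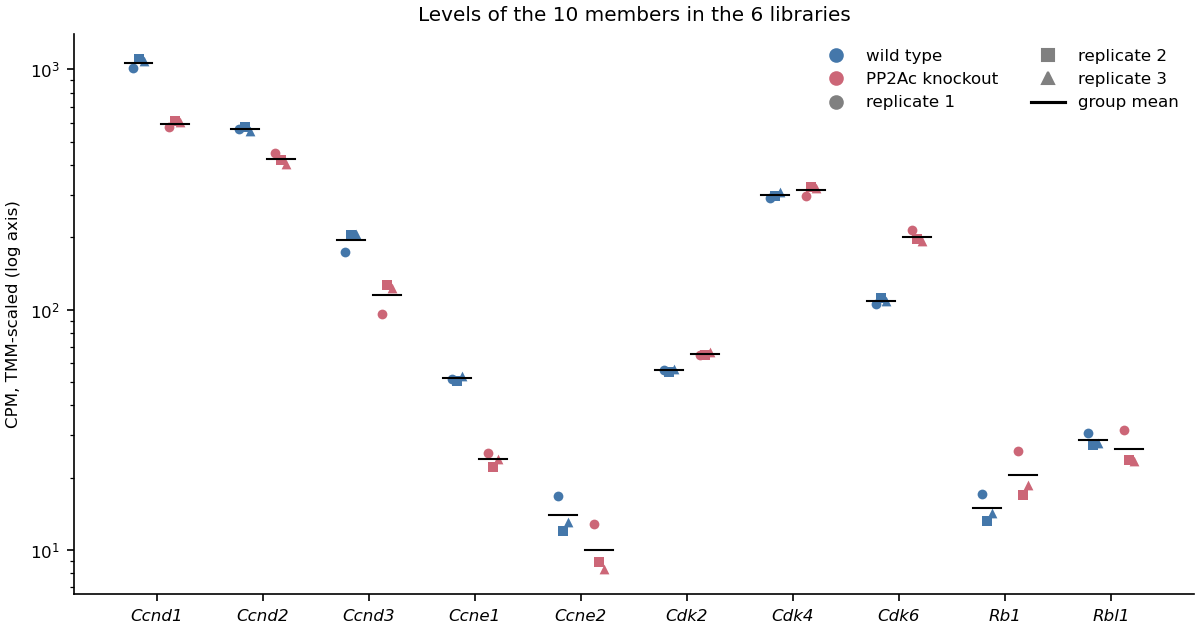
Level of each of the 10 genes in every library, in CPM on a log axis. Blue symbols are wild type, red symbols knockout, symbol shape gives the replicate number and bars mark group means. Ccnd1, Ccnd2, Ccnd3, Ccne1, Cdk2 and Cdk6 have no overlap between groups, and replicate 1 is the highest of its group for Ccne2, Rb1 and Rbl1.

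Ccnd1 encodes cyclin D1, the D cyclin most often tied to growth factor signalling, and lies on chromosome 7, 144929931 to 144939925, minus strand, GRCm38 (ENSMUSG00000070348.5). Its level in wild type was 1013, 1102 and 1087 CPM in replicates 1, 2 and 3, and in knockout 574, 608 and 602 CPM. Every knockout library was well below every wild-type library. Mean levels of 1067 ± 47.9 and 595 ± 18.3 CPM (SD, n = 3) made a 1.79-fold fall (log2 fold change -0.84 ± 0.07 SE, adjusted p = 5.56e-06). The ratio was nearly the same within each replicate number, at -0.82, -0.86 and -0.85 on the log2 scale. Exons of LTO1 on the opposite strand cover 23.4% of the exon bases of Ccnd1. LTO1 itself had means of 10.8 ± 0.418 CPM for wild type and 12.4 ± 1.32 CPM for knockout (SD, n = 3), far under Ccnd1. Its part in the Ccnd1 count was not tested.

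Ccnd2, the gene of cyclin D2 (chromosome 6, 127125162 to 127152193, minus strand, ENSMUSG00000000184.12), fell by less. It had wild-type levels of 565, 576 and 555 CPM and knockout levels of 451, 419 and 404 CPM, in replicate order. The groups did not overlap, and the knockout mean was 1.33-fold lower (log2 fold change -0.41 ± 0.07 SE, adjusted p = 0.000514). Ccnd3, the gene of cyclin D3 (chromosome 17, 47505051 to 47599691, plus strand, ENSMUSG00000034165.16), had wild-type levels of 173, 205 and 206 CPM and knockout levels of 96.1, 127 and 123 CPM. Replicate 1 was the lowest of its group on both sides, and the groups again did not overlap. Ccnd3 fell from 195 ± 18.6 to 115 ± 16.7 CPM (SD, n = 3), a 1.69-fold difference (log2 fold change -0.76 ± 0.12 SE, adjusted p = 0.000429). In the test against a fold change of 1.5, neither Ccnd2 (adjusted p = 1) nor Ccnd3 (adjusted p = 0.0928) passed.

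The D cyclins together, summed as CPM per kilobase of exon, were at 295, 319 and 313 in wild type and 181, 188 and 185 in knockout. The knockout mean was 1.67-fold lower (185 ± 3.70 against 309 ± 12.5, SD, n = 3), and the groups did not overlap (exact two-sided permutation p = 0.1, the smallest that 3 against 3 allows, and 0.133 adjusted over 4 such sums). The make-up of the sum also differed. Ccnd1 was 72.9%, 73.5% and 73.7% of the D cyclin reads per kilobase in wild type and 67.4%, 68.7% and 69.2% in knockout. Ccnd2 made up 20.4%, 19.2% and 18.8% in wild type and 26.5%, 23.7% and 23.2% in knockout. So Ccnd1 stayed the main D cyclin message in every library, with a share difference, knockout minus wild type, of -4.94 percentage points, against 5.0 points for Ccnd2. For both shares the exact permutation p was 0.1 (0.133 adjusted over 8 shares), with no overlap between the groups. The share of Ccnd3 was 7.17% ± 0.420 in wild type and 7.11% ± 0.907 in knockout (SD, n = 3), and its groups overlapped (exact permutation p = 1).

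**Figure D2:**
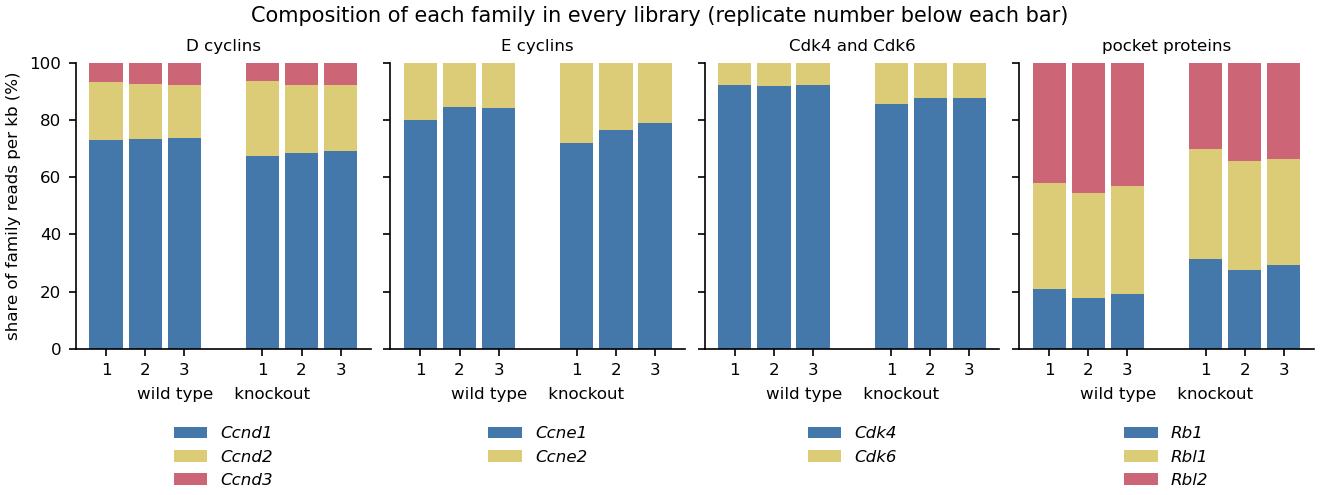
Share of each gene in the reads per kilobase of its family, in percent, for every library. Bars 1 to 3 on the left of each panel are wild type and bars 1 to 3 on the right are knockout. The Ccnd1, Ccne1, Cdk4 and Rbl2 shares are smaller in all 3 knockout libraries, and the Ccnd2, Cdk6 and Rb1 shares larger.

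Of the 10 genes Ccne1, which encodes cyclin E1, had the greatest fall and the smallest adjusted p. It lies on chromosome 7, 38097984 to 38107534, minus strand (ENSMUSG00000002068.16), and no exon of another gene covers its exons. Its level in wild type was 51.5, 50.6 and 53.1 CPM, and in knockout 25.4, 22.2 and 24.0 CPM. The spread within each group was small beside the gap. Mean levels of 51.7 ± 1.30 and 23.8 ± 1.60 CPM (SD, n = 3) made a 2.17-fold fall (log2 fold change -1.12 ± 0.08 SE, adjusted p = 2.68e-06). Ccne1 was the only member at least 2-fold lower, where 10.7% of all tested genes were. In RNA from whole cell populations, fewer cells in the phase that expresses a gene and less of its RNA per cell cannot be told apart.

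Ccne2, the gene of cyclin E2 (chromosome 4, 11191351 to 11204779, plus strand, ENSMUSG00000028212.16), was much scarcer. It had wild-type levels of 16.7, 12.0 and 13.0 CPM and knockout levels of 12.8, 8.93 and 8.35 CPM. Knockout 1 lay above wild type 2, so the groups overlapped, although within each replicate number the knockout was the lower one. The log2 fold change was -0.47 (SE 0.18, adjusted p = 0.0462), just past the threshold. Without both libraries numbered 1 it was -0.53 and passed (adjusted p = 1.16e-05). The call was lost without wild type 1 (-0.32, adjusted p = 0.145), wild type 3 (-0.52, adjusted p = 0.0619), knockout 2 (-0.39, adjusted p = 0.133) or knockout 3 (-0.35, adjusted p = 0.154), and over its 13 alternatives the adjusted p ran from 1.16e-05 to 0.955. Exons of Ints8 on the opposite strand cover 17.4% of the exon bases of Ccne2, and Ints8 fell by 0.46 on the log2 scale (adjusted p = 0.00332); its part in the Ccne2 count was not tested. Per kilobase, Ccne1 held 80.2%, 84.6% and 84.2% of the E cyclin reads in wild type and 72.2%, 76.5% and 79.0% in knockout. Its share thus differed by -7.10 percentage points, knockout minus wild type, without overlap (exact permutation p = 0.1, 0.133 adjusted over 8 shares). The E cyclin sum was 24.1, 22.4 and 23.7 CPM per kilobase in wild type and 13.2, 10.9 and 11.4 in knockout, 1.98-fold lower (exact permutation p = 0.1, 0.133 adjusted over 4 sums).

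The kinases did not follow their cyclins. Cdk6, which pairs with D cyclins (chromosome 5, 3341485 to 3531008, plus strand, ENSMUSG00000040274.11), had wild-type levels of 105, 112 and 109 CPM and knockout levels of 214, 196 and 193 CPM. All knockout libraries lay far above all wild-type libraries. Cdk6 rose from 109 ± 3.24 to 201 ± 11.3 CPM (SD, n = 3), 1.85-fold (log2 fold change 0.89 ± 0.07 SE, adjusted p = 5.43e-06). Its log2 ratios within replicate numbers 1, 2 and 3 were 1.02, 0.81 and 0.82.

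Cdk4, the other partner of the D cyclins (chromosome 10, 127063534 to 127067920, plus strand, ENSMUSG00000006728.12), had wild-type levels of 292, 299 and 308 CPM and knockout levels of 296, 325 and 321 CPM. The groups overlapped through knockout 1, and the log2 fold change of 0.07 did not pass (SE 0.06, 95% interval -0.08 to 0.22, adjusted p = 0.375). The interval does not reach the change of Cdk6 in size. Without both libraries numbered 1 it was 0.10 and did pass (adjusted p = 0.0182, the lowest of its 13 alternatives, of which the highest was 1), and with library size as the only scaling it was -0.02. Exons of Tspan31 on the opposite strand cover 19.7% of the exon bases of Cdk4, and Tspan31 rose from 92.2 ± 4.62 to 149.8 ± 6.66 CPM (SD, n = 3, log2 fold change 0.70, adjusted p = 2.72e-05); its part in the Cdk4 count was not tested. Cdk4 remained the more abundant of the pair. It held 92.3%, 92.0% and 92.4% of their summed reads per kilobase in wild type and 85.7%, 87.7% and 87.8% in knockout, a difference of -5.19 percentage points without overlap (exact permutation p = 0.1, 0.133 adjusted over 8 shares). The sum of Cdk4 and Cdk6 was 97.4, 99.9 and 103 CPM per kilobase in wild type and 107, 114 and 113 in knockout, so it did not fall with the D cyclins.

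Cdk2, the kinase of the E cyclins (chromosome 10, 128697939 to 128705031, minus strand, ENSMUSG00000025358.16), had wild-type levels of 56.3, 55.1 and 56.6 CPM and knockout levels of 64.5, 64.9 and 66.5 CPM. The difference was small but the libraries were tight, and the groups did not overlap. The log2 fold change was 0.22 (SE 0.06, adjusted p = 0.0114). It missed the threshold without knockout 3 (0.21, adjusted p = 0.0511) and with library size as the only scaling (0.14, adjusted p = 0.0781), with adjusted p values from 2.65e-05 to 1 over all 13 alternatives.

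**Figure D3:**
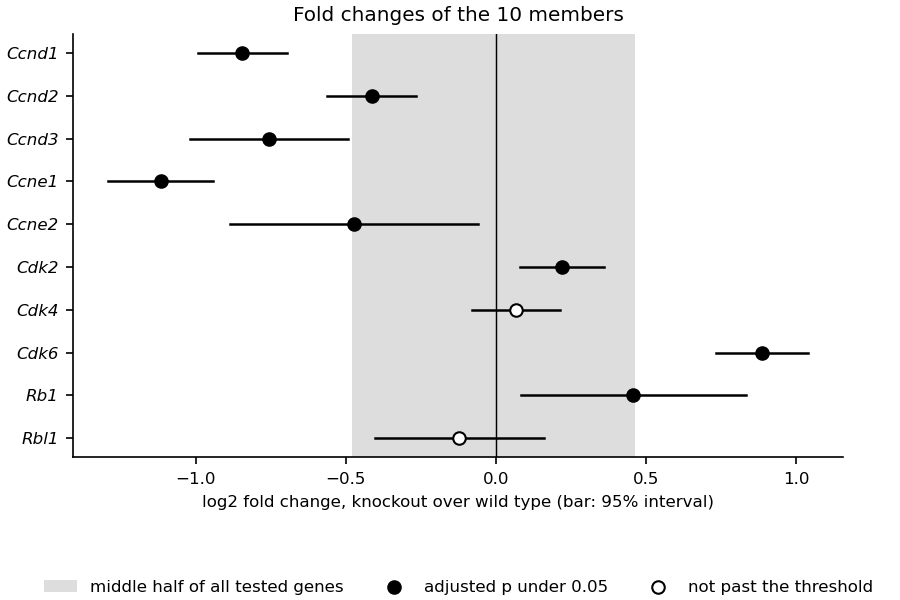
Log2 fold change of each member, knockout over wild type, with its 95% interval from the edgeR fit. Filled points passed an adjusted p of 0.05, open points did not, and the grey band holds the 25th to the 75th percentile of all tested genes (-0.48 to 0.47). Ccnd1, Ccnd3, Ccne1 and Cdk6 lie outside the band and Rb1 near its edge.

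Rb1, the retinoblastoma gene and founding pocket protein (chromosome 14, 73183673 to 73325822, minus strand, ENSMUSG00000022105.6), was the least abundant member per kilobase in wild type. It had wild-type levels of 17.2, 13.2 and 14.3 CPM and knockout levels of 25.7, 17.0 and 18.6 CPM. Knockout 2 lay just under wild type 1, so the groups overlapped, while within each replicate number the knockout was higher (0.58, 0.37 and 0.38 on the log2 scale). The fitted log2 fold change was 0.46 (SE 0.16, adjusted p = 0.0355). Without both libraries numbered 1 it was 0.38 and passed (adjusted p = 0.000145). The call was lost without wild type 2 (0.38, adjusted p = 0.121), wild type 3 (0.43, adjusted p = 0.0944) or knockout 1 (0.27, adjusted p = 0.075), and with upper-quartile factors (0.39, adjusted p = 0.061) or library size alone (0.37, adjusted p = 0.074). Its 13 alternatives gave adjusted p values from 1.12e-05 to 1. Exons of Lpar6 and Rcbtb2 on the opposite strand cover 14.9% of the exon bases of Rb1. Both fell, by 0.56 and 0.72 on the log2 scale (adjusted p = 0.00377 and 1.64e-05), and their part in the Rb1 count was not tested.

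Rbl1 encodes p107, a pocket protein that binds repressive E2F factors (chromosome 2, 157145893 to 157204534, minus strand, ENSMUSG00000027641.13). It had wild-type levels of 30.8, 27.2 and 27.9 CPM and knockout levels of 31.7, 23.7 and 23.5 CPM. Knockout 1 was the highest of all libraries and knockout 2 and 3 the lowest, so the group difference did not pass (log2 fold change -0.12, SE 0.12, 95% interval -0.40 to 0.16, adjusted p = 0.412). Without knockout 1 it was -0.27 and passed (adjusted p = 0.0198), and without both libraries numbered 1 it was -0.22 (adjusted p = 0.00302, the lowest of its 13 alternatives, of which the highest was 1). The third pocket protein gene, Rbl2, which encodes p130 and belongs to the list of E2F partners, fell from 42.2 ± 1.83 to 28.2 ± 2.57 CPM (SD, n = 3, log2 fold change -0.58 ± 0.09 SE, adjusted p = 0.000339). Per kilobase, Rb1 held 20.7%, 17.7% and 19.2% of the pocket protein reads in wild type and 31.2%, 27.4% and 29.3% in knockout. Rbl2 held 42.0%, 45.6% and 43.1% in wild type and 30.1%, 34.2% and 33.7% in knockout. Rbl1 held 38.6%, 38.4% and 37.1% in knockout, so on this per-kilobase scale it had a larger share than Rbl2 there, and a smaller one in wild type. In CPM, not divided by exon length, Rbl2 stayed above Rbl1 in knockout 2 (26.6 against 23.7) and knockout 3 (26.9 against 23.5). Exons of Aktip and Gm45464 on the opposite strand cover 21.0% of the exon bases of Rbl2. Aktip did not pass (log2 fold change -0.07, adjusted p = 0.415), and the part of both in the Rbl2 count was not tested. The Rb1 and Rbl2 shares did not overlap between groups (exact permutation p = 0.1 for each, 0.133 adjusted over 8 shares), and the Rbl1 share did (exact permutation p = 0.3).

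The members were also ordered by CPM per kilobase of exon, with all annotated exons of a gene joined as its length. A transcript can be shorter than that, so the order and the shares above depend on the annotation. Wild type ran Ccnd1 (227 ± 10.2), Cdk4 (92.2 ± 2.47), Ccnd2 (60.1 ± 1.15), Ccnd3 (22.2 ± 2.12) and Ccne1 (19.4 ± 0.490, SD, n = 3). Cdk2 (9.003 ± 0.126), Cdk6 (7.77 ± 0.232), Rbl1 (4.78 ± 0.312), Ccne2 (3.99 ± 0.702) and Rb1 (2.47 ± 0.343) followed. The ranges of Ccnd3 and Ccne1 overlapped, as did those of Rbl1 and Ccne2. In knockout Ccnd1 (126 ± 3.88), Cdk4 (96.7 ± 4.76) and Ccnd2 (45.1 ± 2.53) kept the first places. Cdk6 (14.4 ± 0.811) was next, with a range that overlapped that of Ccnd3 (13.1 ± 1.90), and Ccne1 (8.96 ± 0.599) stood below Cdk2 (10.5 ± 0.168). The last 3 were Rbl1 (4.39 ± 0.780), Rb1 (3.40 ± 0.773) and Ccne2 (2.87 ± 0.695), whose neighbouring ranges overlapped.

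The sequence before the annotated start was at hand for 6 members (7 starts, RefSeq, GRCm38.p6). These promoters are shown for Ccne1, the member that fell most, and for Cdk4 and Rbl1, whose messages did not pass the test and whose promoters hold an E-box or E2F motif. The sequence stops where an annotated untranslated exon begins. Capitals mark the GC box (GGGCGG, either strand) in Ccne1, the E-box (CACGTG), which MYC and MAX can bind, in Cdk4, and the E2F motif (TTTCCCGC, TTTCGCGC, TTTGCCGC or TTTGGCGC, either strand) in Rbl1.
Ccne1, chr7:38107535-38107740, minus strand: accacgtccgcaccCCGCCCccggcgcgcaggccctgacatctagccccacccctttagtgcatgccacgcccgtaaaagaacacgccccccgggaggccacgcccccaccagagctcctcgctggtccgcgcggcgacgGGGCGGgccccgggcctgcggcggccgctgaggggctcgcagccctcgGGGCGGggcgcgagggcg
Cdk4, chr10:127063285-127063533, plus strand: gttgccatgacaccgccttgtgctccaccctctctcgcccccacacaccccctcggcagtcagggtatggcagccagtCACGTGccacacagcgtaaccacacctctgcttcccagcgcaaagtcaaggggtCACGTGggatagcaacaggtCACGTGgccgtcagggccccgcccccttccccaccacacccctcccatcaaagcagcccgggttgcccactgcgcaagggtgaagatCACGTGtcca
Rbl1, chr2:157204535-157204784, minus strand: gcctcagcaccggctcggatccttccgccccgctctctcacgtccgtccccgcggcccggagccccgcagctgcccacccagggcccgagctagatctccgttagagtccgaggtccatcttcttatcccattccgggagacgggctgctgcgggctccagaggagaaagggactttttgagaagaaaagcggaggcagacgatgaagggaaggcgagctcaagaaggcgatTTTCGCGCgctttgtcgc

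In the 250 bases before the start, Cdk4 held 4 E-boxes, beginning at -172, -118, -98 and -11, where 6.04% of 32536 RefSeq promoter windows of that length held at least 1 and 0.0215% held 4 or more. Cdk6 held 1 E-box, at -220. Its window (3343643 to 3343892) lies inside the gene at the positions given above and overlaps an untranslated exon of Cdk6. The E2F motif was present in Rbl1, at -18, and in Cdk2, at -140 in an annotated untranslated exon of Pmel, against 1.88% of all windows. It was not found in these windows of Ccnd3, Ccne1, Cdk4 or Cdk6. The GC box, present in 33% of all windows, overlaps none of the E2F or E-box matches printed. It was not particular to Ccne1. Cdk4 held 1 at -80 and Rbl1 held 1 at -226, both left in lower case above. Cdk2 held 5 and the Ccnd3 windows 2 and 1, while the Cdk6 window held none. A match here describes the letters only.

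The wider pathway was read from 5 gene lists. E2F target genes of the G1-S transition were mostly lower: of 27 tested, 18 fell, 3 rose and 6 did not pass, with a median log2 fold change of -0.54 (all tested genes: -0.01). The share that fell was 66.7%, against 32.1% of all tested genes, and the share that rose 11.1%, against 31.9%. Tk1, the thymidine kinase of S phase, fell to 18.5 ± 3.06 CPM from 90.8 ± 5.21 CPM (SD, n = 3; adjusted p = 5.2e-07, log2 fold change -2.30). Ccna2, the cyclin that follows cyclin E, fell to 47.4 ± 5.35 CPM from 155.8 ± 12.2 CPM (SD, n = 3; adjusted p = 9.08e-07, log2 fold change -1.72). Those that rose included Cdt1, the licensing factor that helps load the MCM helicase, by 0.39 on the log2 scale, and Chaf1b, a chromatin assembly subunit, by 0.30 (both named after their values were seen), and 1 rose without wild type 1, knockout 2 or knockout 3.

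**Figure D4:**
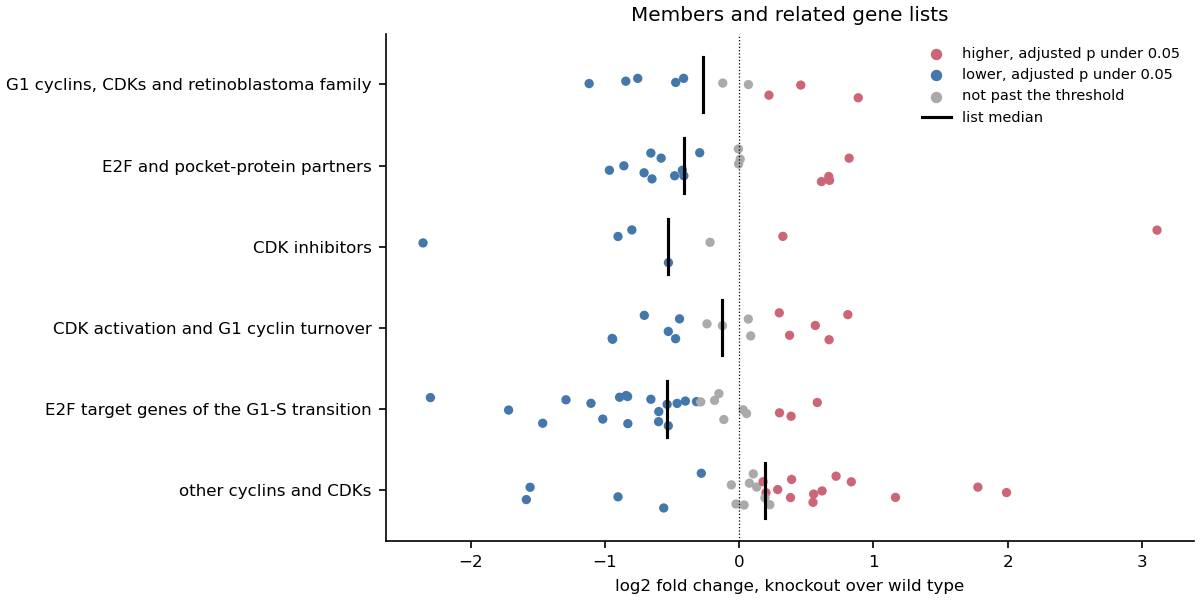
Log2 fold change, knockout over wild type, of each tested gene in the 10-member set and in 5 related lists. Red points rose and blue points fell at an adjusted p of 0.05, grey points did not pass, and black bars are list medians. The E2F targets sit mostly on the lower side, and CDK inhibitors hold the widest range, from -2.35 for Cdkn1c to 3.11 for Cdkn1a.

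Among 17 E2F factors and pocket-protein partners, 10 fell, 4 rose and 3 did not pass (median log2 fold change -0.41). That is 58.8% lower and 23.5% higher, beside 32.1% and 31.9% of all tested genes. The repressors E2f8 and E2f7 fell by 0.86 and 0.71 on the log2 scale, Mybl2, an activator of late cell cycle genes, by 0.97, and Tfdp1, the common dimer partner of E2F factors, by 0.66. The activators were mixed: E2f1 fell by 0.42 (adjusted p = 0.0311), E2f2 rose by 0.67 (adjusted p = 0.00206) and E2f3 rose from 48.3 ± 0.154 to 76.7 ± 0.62 CPM (SD, n = 3, log2 fold change 0.67 ± 0.06 SE, adjusted p = 1.57e-05). Of the 7 CDK inhibitors, 2 rose (28.6%, against 31.9% of all tested genes), 4 fell (57.1%, against 32.1%) and 1 did not pass. Cdkn1a (p21) rose from 34.6 ± 2.11 to 299.3 ± 13.5 CPM, while Cdkn1c (p57) fell to 4.10 ± 0.133 CPM from 21.0 ± 1.54 CPM (SD, n = 3; adjusted p = 1.39e-07, log2 fold change -2.35). INK4 inhibitors act on Cdk4 and Cdk6. Of those with the smallest adjusted p, Cdkn2b and Cdkn2a fell by 0.90 and 0.80 on the log2 scale and Cdkn2c rose by 0.33. Reads of Cdkn2a sum its p16 and ARF transcripts.

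Of 15 genes of CDK activation and G1 cyclin turnover, 5 rose, 6 fell and 4 did not pass (median log2 fold change -0.12). These shares, 33.3% higher and 40% lower, are near the 31.9% and 32.1% of all tested genes, so the counts do not set the list apart. Gsk3b, a kinase that marks cyclin D1 for export and breakdown, rose from 190.3 ± 3.19 to 302.7 ± 23.8 CPM (SD, n = 3, log2 fold change 0.67, adjusted p = 4.69e-05). Cks1b, a small subunit of CDK complexes, fell by 0.94 on the log2 scale, and Fbxo4 and Fbxo31, F-box subunits of ubiquitin ligases, fell by 0.71 and 0.95. Ccnh, the cyclin of the CDK-activating kinase, rose by 0.81. RNA levels do not measure the breakdown of a protein.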

How the data were processed

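The authors deposited raw read counts in a single table with gene symbols as rows and the 6 libraries as columns, and it held 0 columns of other samples. Per the submitters' processing notes, which give no roles, the tools were STAR 2.7.1a, fastp 0.20.0, limma 3.48.3, edgeR 3.34.0 and HTSeq 0.11.2, and the builds mm10 and GRCm38. The sources used here do not give the annotation release or the strand setting. Whether reads of genes that overlap on opposite strands were kept apart is therefore not known.

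Columns were matched by sample title. Genes passing filterByExpr (14877) were scaled by TMM and compared, knockout over wild type, by quasi-likelihood F-tests in edgeR 4.0.16 (R 4.3.3), with Benjamini-Hochberg adjustment over all of them and a threshold of 0.05. The SE is the fold change divided by the root of its F statistic. CPM is counts per 1000000 of TMM-scaled library size. Exon lengths, positions and overlaps came from GENCODE M21 (GRCm38), where each of the 10 symbols matched 1 gene. Shares within a family used counts per kilobase and an exact permutation test over 20 assignments. The fit was tested on simulated data in which only a small part of the genes changed, equally often up and down. Such data do not test the scaling where most genes differ, as here.

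No pair of replicates agreed within sampling noise (chi-square per degree of freedom from 3.41 to 48.4), so all were kept. Deviations from the group mean in same-numbered libraries correlated at r = 0.443, 0.161 and 0.15 for numbers 1, 2 and 3. The number 1 libraries thus deviated together. Pairs of a number 1 library with another number ran from -0.299 to -0.247. Deviations from a group mean cancel out within the group, so these values largely follow from the 0.443. Numbers 2 and 3 were not told apart, as wild type 2 and knockout 3 were at 0.15 too. Wild type 3 correlated more with knockout 2 (0.189) than with knockout 3. The labels do not say what a number marks.

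The members and lists were chosen with earlier results of these data known. Named are all members, Ppp2ca, up to 5 genes per pathway list with the smallest adjusted p, and the 3 genes most alike to the member with the smallest adjusted p. Members of a list beyond these were named for their role after their values were seen: Rbl2, E2f1, E2f2, E2f7, Cdt1, Chaf1b and Ccnb1. Some members of the lists are not reported by name here. Alternatives were other scalings, DESeq2 1.42.0, no filter, a replicate block, each library left out, both libraries numbered 1 left out, and a test against a fold change of 1.5. Counts carry no molecular identifiers.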

Additional observations from a re-analysis of the deposited data

How the results depend on the processing

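Ccnd1, Ccne1 and Cdk6 kept their direction and their call in all 13 alternatives, with log2 fold changes from -0.93 to -0.81, from -1.20 to -1.06 and from 0.80 to 0.92. With the replicate block, all 10 members kept their side of the threshold (3 higher and 5 lower), for example Ccne2 at -0.48 (adjusted p = 2.63e-05), Rb1 at 0.45 (adjusted p = 1.12e-05), Cdk4 at 0.07 (adjusted p = 0.0845) and Rbl1 at -0.13 (adjusted p = 0.0661), and 11495 genes were called in place of 9525. The block changed no call of a member, and neither did DESeq2 or the fit with no filter on low counts. Under the block the list counts moved by less than 1.5 times.

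The test against a fold change of 1.5 is stricter by construction. It called 3966 genes, 2009 higher and 1957 lower, and 1 member higher and 2 lower, so that Ccnd2 (-0.41), Ccnd3 (-0.76), Ccne2 (-0.47), Cdk2 (0.22) and Rb1 (0.46) lost the call. Its counts higher and lower were 1 and 2 for E2F partners, 1 and 2 for CDK inhibitors, 0 and 2 for CDK activation and turnover, 0 and 10 for E2F targets, and 4 and 3 for other cyclins and CDKs. With library size as the only scaling, which lowered the median log2 fold change by 0.08, 1 member was called higher, Cdk2 (0.14) and Rb1 (0.37) lost the call, Cdk4 changed sign (-0.015), and 1 E2F target was called higher. Upper-quartile factors ended the call of Rb1 (0.39). Without both libraries numbered 1, Cdk4 (0.10) and Rbl1 (-0.22) gained a call and no member lost one. That fit called 11123 genes over the whole table.

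With 1 library left out at a time, values ran from -0.68 to -0.32 for Ccne2, from 0.27 to 0.58 for Rb1, from -0.27 to -0.043 for Rbl1 and from 0.21 to 0.24 for Cdk2. E2F targets called higher ran from 1 to 3, and the Ccnd3 share difference from -0.34 to 0.47 percentage points, with changes of sign without wild type 2 (0.02), wild type 3 (0.10) or knockout 1 (0.47) and without both libraries numbered 1 (0.23). Counts not divided by exon length gave share differences of -5.98 points for Ccnd1 and -12.4 for Cdk4. Apart from what a setting does by construction, the cause was not tested. With 3 libraries a group, no share or sum could pass 0.05.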

Other observations

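Of 26 tested cyclins and CDKs outside the G1 set, 13 rose (50%, against 31.9% of all tested genes), 5 fell (19.2%, against 32.1%) and 8 did not pass, with a median log2 fold change of 0.20. In the test against a fold change of 1.5, 4 were higher and 3 lower. The number that rose also depended on other settings. With library size as the only scaling 9 rose, where 4150 of all 14877 tested genes did, in place of 4752. Without wild type 3 the list count was also 9, and with upper-quartile factors it was 10. With the replicate block, or without both libraries numbered 1, 17 rose. Ccng2, a cyclin linked to cell cycle exit, rose from 21.4 ± 0.243 to 85.1 ± 1.28 CPM (SD, n = 3, log2 fold change 1.99, SE 0.06, adjusted p = 3.78e-08 with edgeR's quasi-likelihood test). Cdk17 and Cdk20 rose by 1.16 and 1.78 on the log2 scale. The G2 and M phase cyclin gene Ccnb2 fell from 52.2 ± 2.13 to 17.4 ± 1.11 CPM, and Ccnf, the F-box cyclin of G2 phase, from 66.2 ± 5.44 to 22.5 ± 1.35 CPM. Ccnb1 was at 113 ± 8.51 and 116 ± 5.45 CPM and did not pass (adjusted p = 0.692; named after its value was seen).

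Among 10214 candidate genes, the 3 whose log2 CPM followed Ccne1 most closely over the 6 libraries were Ppm1d (r = 0.9993), Ddit4l (r = 0.9992) and Ttll5 (r = 0.999). Their log2 fold changes were -0.80, -1.19 and -1.02. Since 64% of tested genes differed between the groups, many genes share this pattern, and the likeness over 6 libraries is a description only.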
